A study of Bos taurus with 21 samples.

Results

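The actin and tropomyosin genes encode the backbone of the thin filament of muscle. The 9 genes described are the skeletal actin *ACTA1*, the cardiac actin *ACTC1*, the smooth muscle actin *ACTA2*, the cytoplasmic actin *ACTB*, the tropomyosins *TPM1*, *TPM2* and *TPM3*, and the tropomodulins *TMOD1* and *TMOD4*. Every non-control probe whose transcript accession belongs to one of these genes in the cattle annotation was taken, which gave 34 of the 43653 probes of the array and 9 of the 12538 genes that a probe names. The probes numbered 4 for *ACTA1*, 2 for *ACTC1*, 1 for *ACTA2*, 4 for *ACTB*, 8 for *TPM1*, 5 for *TPM2*, 6 for *TPM3*, 2 for *TMOD1* and 2 for *TMOD4*.

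RNA came from muscle of 21 foetuses of Blonde d'Aquitaine (BA), a muscular French beef breed, and of Charolais (CH), a second French beef breed, with 1 single-colour array for each foetus. There were 3 BA and 2 CH foetuses at 110 days post conception (dpc), 2 BA and 3 CH at 180 dpc, 3 of each at 210 dpc, and 2 BA and 3 CH at 260 dpc, which is close to term. The 10 BA foetuses were 3 males and 7 females, the 11 CH foetuses 5 males and 6 females, and each breed descended from 2 sires. Sex and sire were not balanced over the groups. Both BA foetuses at 180 dpc were female and shared a sire, and both at 260 dpc were female and shared the other sire. CH at these stages held both sexes and both sires. At 110 dpc both CH foetuses were female, whereas BA held both sexes. All 3 CH foetuses at 210 dpc shared a sire, whereas BA held both of its sires. Breed and stage differences are therefore mixed with sex and sire. Of the array slides, 1 and 3 held only foetuses at 110 and 180 dpc, and 2 and 4 only those at 210 and 260 dpc. Stage is thus also partly mixed with slide. A *MSTN* mutation is described for the BA breed, but no genotype of a foetus is given, so a breed difference covers the whole genetic background. The study names the muscle m. Semitendinosus and the sample labels m. Longissimus thoracis, and the source could not be settled. The tissue was whole muscle, so fewer cells of a type and less RNA per cell cannot be told apart. All 7 skeletal fibre markers that had a probe, among them *CKM* and *DES*, were well above background on every array. Of the 7 cardiac markers with a probe, 2 were above background on every array and 2 on some. The other 3, *NPPA*, *NPPB* and *NKX2-5*, were above background on none.

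Thin filaments are helices of actin with tropomyosin dimers lying end to end along the groove, where they set with troponin whether myosin can bind. Developing skeletal muscle uses cardiac actin first and skeletal actin later. Of the tropomyosins, *TPM1* belongs mainly to fast fibres and *TPM3* to slow fibres. Tropomodulins cap the slow-growing end of the filament and so help to fix its length. *ACTA2* marks smooth muscle of vessels and also young myogenic cells and myofibroblasts, and *ACTB* belongs to the cytoskeleton of nearly every cell.

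Values are log2 intensities scaled to the 75th percentile of their array, with 0 placed at the level of the middle probe on a typical array (normalized log2 intensity). A difference of 1 is therefore a 2-fold difference. Testing required a group mean over 0 in 7 or more of the 8 groups, and 33 of the 34 probes passed. The exception was a *TPM2* probe, A_73_P040371, whose values lay between −0.66 and 0.01 at 110 dpc and between 3.06 and 4.26 at 260 dpc. All 34 probes were well above background on 21 of 21 arrays and none was saturated. A gene is described by its brightest tested probe, and the other probes by counts and ranges. Intensities of different probes were not compared as levels.

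From 110 to 260 dpc, averaged over the breeds, 28 of the 33 probes rose, 5 fell and none failed the threshold (limma, Benjamini-Hochberg adjusted p under 0.05 over 20132 probes). Of all tested probes, 64.1% passed in this comparison, 33.3% as higher and 30.8% as lower. The median difference of the 33 probes was 2.17, against 0.035 over all tested probes. The brightest probes of *ACTA1*, *ACTB*, *TPM1*, *TPM2*, *TPM3*, *TMOD1* and *TMOD4* rose and those of *ACTC1* and *ACTA2* fell. On the authors' value table, whose arrays still differed in scale and where all tested probes shifted by −0.36, 26 member probes rose and 5 fell, and the share of higher calls among all called probes was 23.9% in place of 52.0%.

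**Figure D1:**
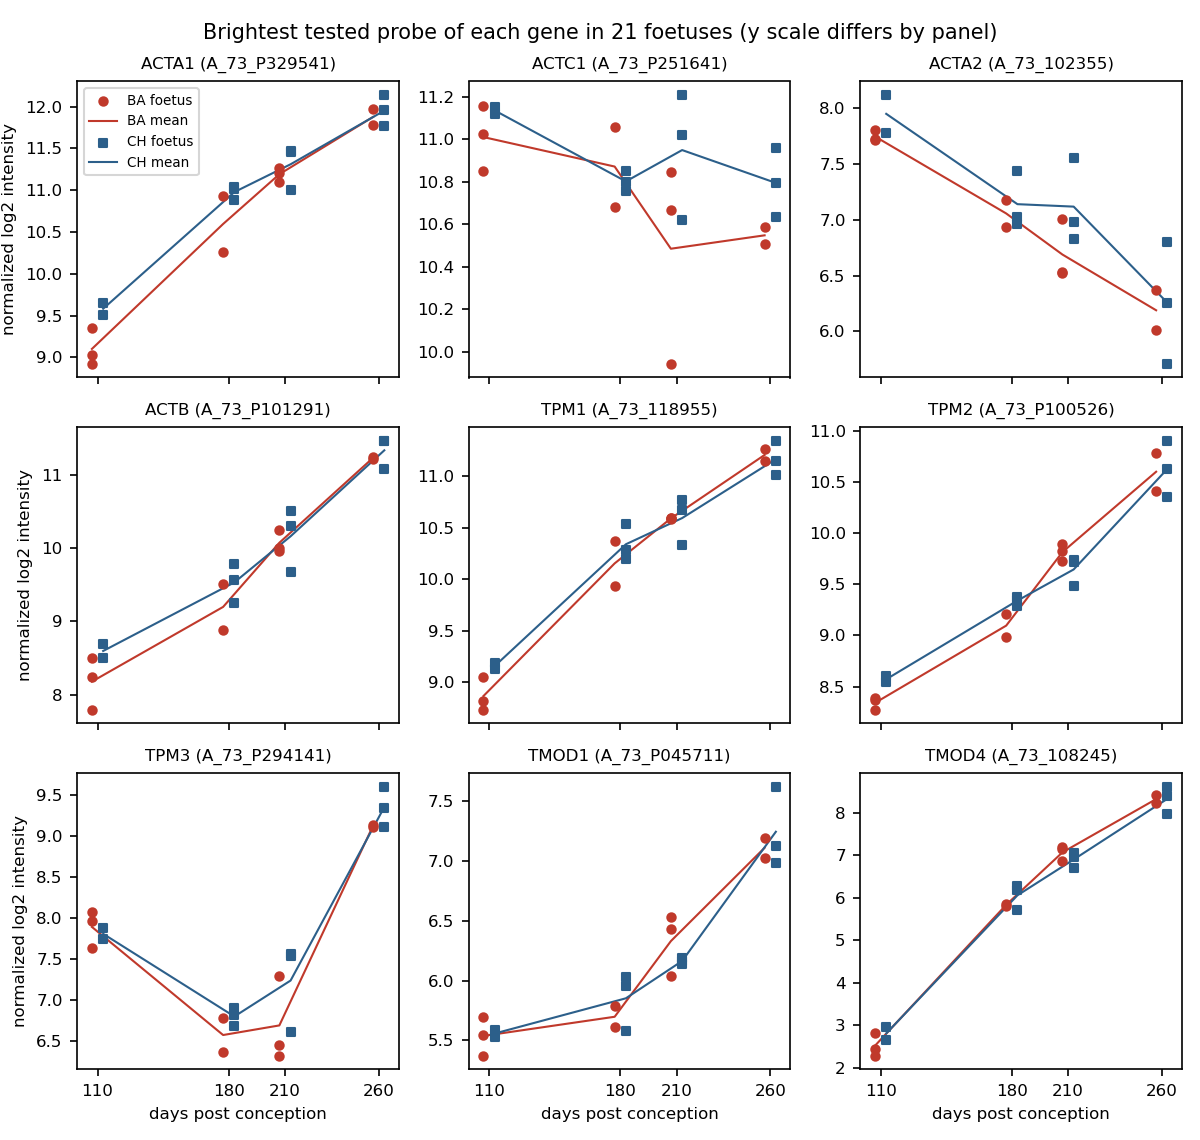
Normalized log2 intensity of the brightest tested probe of each of the 9 genes (y axis, its scale differs by panel) against days post conception (x axis), with 1 point per foetus and lines through the means of BA (red circles) and CH (blue squares). *TMOD4* rose from a median of 2.66 at 110 dpc to 8.40 at 260 dpc, *TPM3* was lowest at 180 and 210 dpc, and *ACTA2* fell.

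The skeletal actin *ACTA1* rose from 110 to 260 dpc at all 4 of its probes, and its brightest probe passed at every step. That probe read 8.92, 9.03 and 9.35 in the BA and 9.51 and 9.65 in the CH foetuses at 110 dpc. At 180 dpc it read 10.26 and 10.93 in BA and 10.88, 11.02 and 11.04 in CH. The 6 foetuses at 210 dpc lay between 11.00 and 11.47 with a median of 11.24, and at 260 dpc the values were 11.78 and 11.97 in BA and 11.76, 11.95 and 12.14 in CH. All foetuses at 260 dpc were above all at 210 dpc, and all at 180 dpc above all at 110 dpc, whereas 180 and 210 dpc overlapped. The change from 110 to 260 dpc was 2.57 ± 0.13 (SE, n = 5 and 5), or 5.95-fold, with a limma adjusted p of 3.95e-11. By steps it was 1.45 (adjusted p = 8.67e-07), 0.46 (0.028) and 0.66 (0.000427). The middle step failed the threshold without BA replicate 1 or CH replicate 3 at 180 dpc, or BA replicate 3, CH replicate 2 or CH replicate 3 at 210 dpc. It also failed with median scaling (adjusted p = 0.0643), on the authors' value table (0.289), with no filter (0.0738), in female foetuses alone (0.366) and with sire as a block (0.152). The last step failed with quantile normalization (0.15, limma adjusted p = 0.150) and on the authors' value table (0.25, 0.222).

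The 4 probes of *ACTA1* did not give the same change. A_73_P381326 rose by 3.35 ± 0.20 (SE), more than the 2.57 of the brightest probe, A_73_P329541. A_73_114503 rose by only 0.47 ± 0.11 (limma adjusted p = 0.00102) and A_73_P369826 by 0.53 ± 0.11 (0.000311). In each of the first and second steps 2 of the 4 probes passed, and the lowest differences were 0.071 (adjusted p up to 0.690) and 0.13 (up to 0.461), whereas all 4 passed in the last step. The medians of A_73_114503 were 9.94, 10.10, 10.21 and 10.43 at 110, 180, 210 and 260 dpc. The ratio of A_73_P329541 to A_73_114503 within an array went from between −1.19 and −0.28 at 110 dpc to between 1.32 and 1.62 at 260 dpc, a change of 2.17 on the log2 scale. This pair was chosen after its values were seen. Likeness of profile was measured, as a description, by the root mean square difference between the centred values of 2 probes over the 21 arrays. By this measure the gene nearest to A_73_P329541 was *TNNT3*, the fast skeletal troponin T, at 0.203, and that nearest to A_73_114503 was *MYL1*, a fast myosin light chain, at 0.0753, against own spreads of 0.974 and 0.225. Almost as near to A_73_114503 were *GNAS* at 0.0850 and *IGF2* at 0.0937. A_73_P369826 was nearest to *RPLP1* at 0.0819 and *GNAS* at 0.0918. All 4 probes carry the same transcript accession, and the probe sequences were not used here, so which transcripts each one binds was not tested.

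The cardiac actin *ACTC1* fell slightly. Its brightest probe read 10.85, 11.02 and 11.16 in BA and 11.12 and 11.15 in CH at 110 dpc, and 10.51 and 10.59 in BA and 10.63, 10.79 and 10.96 in CH at 260 dpc. These ranges overlapped by only 1 foetus on each side, a CH foetus at 260 dpc with 10.96 and a BA foetus at 110 dpc with 10.85. The change was −0.40 ± 0.15 (SE, n = 5 and 5; limma adjusted p = 0.029) and that of the other probe −0.36 (0.0496). At 180 dpc its values were 10.68 to 11.06 and at 210 dpc 9.94 to 11.21, both overlapping the other stages. No single step passed, with −0.24, −0.12 and −0.05 in order, but the last step was −0.53 and passed with quantile normalization (adjusted p = 0.00547). The lowest value of all 21 foetuses was a BA foetus at 210 dpc with 9.94. The decline depended on the setting, and it failed the threshold when any of 6 arrays was left out. It was −0.25 with slide as a block (adjusted p = 0.432), −0.30 with median scaling (0.1005) and −0.996 with quantile normalization. It was −0.06 between the BA foetus at 110 dpc and the CH foetus at 260 dpc that shared a slide.

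Within an array the signal of *ACTA1* rose against that of *ACTC1*, by an amount that depended on the *ACTA1* probe. The log2 ratio of their brightest probes lay between −2.10 and −1.46 at 110 dpc and between 0.80 and 1.39 at 260 dpc. Its change of 2.99 had the smallest two-sided p that an exact permutation of 5 against 5 foetuses can give, 0.00794 over 252 divisions, or 0.00907 after adjustment over 8 ratios. With A_73_114503 and A_73_P369826 in place of the brightest *ACTA1* probe the change was 0.82 and 0.88, and over all 8 pairs of probes of the genes it lay between 0.80 and 3.79, with no overlap of the stages in any pair. A ratio of 2 probes shows unequal change, not the proportion of the transcripts.

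The smooth muscle actin *ACTA2*, with 1 probe, fell in both breeds. It read 7.71, 7.73 and 7.80 in BA and 7.78 and 8.12 in CH at 110 dpc. At 260 dpc it read 6.01 and 6.37 in BA and 5.71, 6.26 and 6.80 in CH, and every value was below every value at 110 dpc. At 180 dpc it read 6.94 and 7.18 in BA and 6.96, 7.03 and 7.43 in CH, and at 210 dpc it lay between 6.53 and 7.55, so that 180 and 210 dpc overlapped. The change was −1.63 ± 0.19 (SE, n = 5 and 5; limma adjusted p = 9.57e-07), a 3.09-fold fall. The first step was −0.75 (0.0082) and the last −0.68 (0.00562), whereas the step from 180 to 210 dpc, −0.20, did not pass (0.557). On the authors' value table the first step was −0.73 and did not pass (0.154). The log2 ratio of *ACTA1* to *ACTA2* rose by 4.23 within arrays (exact permutation p = 0.00794, 0.00907 adjusted), and by 2.06 to 5.02 over the 4 *ACTA1* probes. The profile nearest to *ACTA2* was that of *ACLY*, the enzyme that makes cytosolic acetyl-CoA, at 0.223 against an own spread of 0.625. *ACTC1*, with an own spread of 0.282, was nearest to *FAM136A* at 0.178.

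Markers of other cell types were compared between the same stages. By brightest probe, 65.3% of all tested genes passed from 110 to 260 dpc, 33.8% as higher and 31.5% as lower. Of 6 tested smooth muscle and pericyte markers, 2 rose, 2 fell and 2 did not pass from 110 to 260 dpc, with a summed level on the log2 scale of 7.68 to 7.86 at 110 dpc and 7.37 to 8.15 at 260 dpc. Of 9 fibroblast markers, 8 fell, and their summed level went from between 11.04 and 12.09 to between 10.25 and 10.95. Of 4 tested myoblast and satellite cell markers, 1 rose and 2 fell, with summed levels of 8.58 to 9.72 and 8.28 to 8.72. The part of these cells in the fall of *ACTA2* was not tested. Of the other marker lists, 6 rose and 1 fell of 7 skeletal fibre markers, 4 rose and 1 fell of 7 endothelial markers, 1 rose and 2 fell of 4 leukocyte markers, 4 rose of 5 Schwann cell markers, 1 rose and 1 fell of 2 tested cardiac markers, and the 1 tested adipocyte marker did not pass.

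The 4 probes of the cytoplasmic actin *ACTB* went in opposite directions. A_73_P471618, with medians of 9.49 at 110 dpc and 8.99 at 260 dpc, fell by 0.51 ± 0.11 (SE; limma adjusted p = 0.000617), and A_73_102689 fell by 0.37 ± 0.11 (0.00965). A_73_P101291, the brightest, rose by 2.90 ± 0.18 (3.08e-10), from 7.79, 8.24 and 8.50 in BA and 8.50 and 8.69 in CH at 110 dpc to 11.22 and 11.25 in BA and 11.08, 11.47 and 11.47 in CH at 260 dpc. A_73_P099661 rose by 1.67 ± 0.13 (5.12e-09). Thus no single direction can be given for *ACTB*. The difference between A_73_P101291 and A_73_P471618 within an array changed by 3.48, a pair chosen after its values were seen.

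The brightest *ACTB* probe was most like probes of other actins. The nearest named probes of genes outside the 9 to A_73_P101291 were A_73_P099801 of *ACTG2*, the enteric smooth muscle actin, at 0.106, and A_73_P107861 of *ACTG1*, the second cytoplasmic actin, at 0.132, whereas its own spread was 1.09. The *ACTG1* probe A_73_P107861 rose by 2.90, but the other 5 tested *ACTG1* probes fell by between 0.40 and 0.52. A_73_P099801 was also among the 3 nearest to the *ACTA1* probe A_73_P381326, at 0.254 against an own spread of 1.26. The actins are near-identical in coding sequence and the transcripts that each probe binds were not tested. The rises of A_73_P101291, A_73_P099661, A_73_P107861 and A_73_P099801 are therefore uncertain as to gene. Binding was equally untested for the other actin probes, those of *ACTA1*, *ACTC1* and *ACTA2* included.

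**Figure D2:**
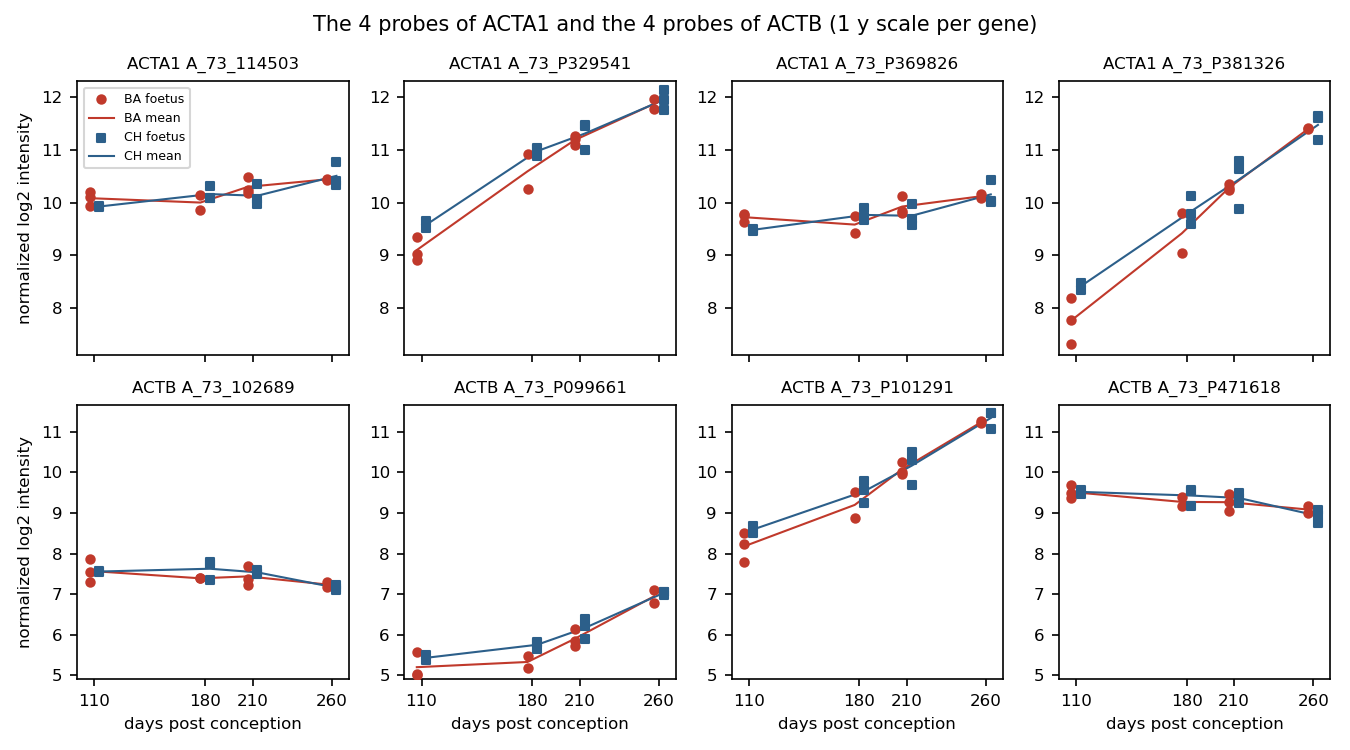
Normalized log2 intensity (y axis, 1 scale per gene) of the 4 *ACTA1* probes (top) and the 4 *ACTB* probes (bottom) against days post conception (x axis), with 1 point per foetus and lines through the means of BA (red circles) and CH (blue squares). *ACTA1* A_73_P329541 and A_73_P381326 climbed while A_73_114503 and A_73_P369826 changed by 0.47 and 0.53, and *ACTB* A_73_P101291 climbed by 2.90 while A_73_P471618 fell by 0.51.

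The tropomyosins *TPM1* and *TPM2* rose together at every step. The brightest *TPM1* probe read 8.73, 8.82 and 9.05 in BA and 9.13 and 9.18 in CH at 110 dpc, and 11.15 and 11.26 in BA and 11.01, 11.14 and 11.34 in CH at 260 dpc. At 180 dpc it read 9.94 and 10.37 in BA and 10.20, 10.29 and 10.53 in CH, and at 210 dpc it lay between 10.33 and 10.77. Only 180 and 210 dpc overlapped. The change from 110 to 260 dpc was 2.17 ± 0.11 (SE, n = 5 and 5; limma adjusted p = 3.55e-11), 4.50-fold, and all 8 *TPM1* probes rose, by 2.17 to 3.23. All 8 also passed at each of the 3 steps. For the brightest probe the step from 180 to 210 dpc, 0.34, was close to the threshold (0.0483) and was lost when any of 14 of the 21 arrays was left out and in 9 of 13 alternatives. The last step of this probe failed with quantile normalization (0.10, limma adjusted p = 0.262) and on the authors' value table (0.18, 0.415).

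*TPM2*, which encodes the beta chain, read 8.27, 8.37 and 8.38 in BA and 8.54 and 8.60 in CH at 110 dpc. At 260 dpc it read 10.41 and 10.78 in BA and 10.36, 10.62 and 10.90 in CH. No value at a later stage overlapped one at an earlier stage. The change was 2.15 ± 0.10 (SE, n = 5 and 5; limma adjusted p = 1.46e-11), 4.45-fold, with steps of 0.76, 0.51 and 0.88 that all passed. The middle step failed on the authors' value table (0.269) and in female foetuses alone (0.0974). The 4 tested *TPM2* probes rose by 2.15 to 2.53. The gene nearest in profile to *TPM2* was *CACNG1*, the gamma subunit of the muscle calcium channel, at 0.129, and that nearest to *TPM1* was *EEPD1* at 0.150. *CKM*, the muscle creatine kinase, was among the 3 nearest of both. The ratio of *TPM1* to *TPM2* was between 0.45 and 0.67 at 110 dpc and between 0.44 and 0.73 at 260 dpc on the log2 scale, a change of 0.014 that was within the spread of the foetuses (exact permutation p = 0.825). Over the 32 pairs of *TPM1* and *TPM2* probes the change lay between −0.37 and 1.06 and was above 0 in 27. In 21 pairs all foetuses at 260 dpc lay above all at 110 dpc, so the result depended on the probes.

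*TPM3*, the tropomyosin of slow fibres, fell first and rose late. Its brightest probe read 7.64, 7.96 and 8.07 in BA and 7.74 and 7.87 in CH at 110 dpc. At 180 dpc it read 6.37 and 6.77 in BA and 6.68, 6.81 and 6.90 in CH, and all 5 were below all at 110 dpc. At 210 dpc the foetuses were spread widely, with 6.32, 6.45 and 7.29 in BA and 6.61, 7.53 and 7.56 in CH. At 260 dpc all were above every earlier foetus, with 9.12 and 9.14 in BA and 9.11, 9.34 and 9.60 in CH.

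The first step of *TPM3* was −1.17 ± 0.20 (SE, n = 5 and 5; limma adjusted p = 0.000401), the next 0.28, which did not pass (0.397), and the last 2.28 ± 0.19 (1.53e-07), or 4.85-fold. The level at 210 dpc was still below that at 110 dpc by 0.89 (0.00106). The order of the stages was therefore 180, 210, 110 and 260 dpc from low to high, where 180 and 210 dpc did not differ beyond their spread. All 6 *TPM3* probes fell in the first step, by 1.13 to 1.73, and all 6 rose in the last, by 2.28 to 3.28. A_73_P115306, the dimmest, varied most, from 0.10 to 3.99 among the 5 foetuses at 110 dpc. From 110 to 260 dpc the brightest probe changed by 1.39 ± 0.20 (9.85e-06), which was 0.81 with quantile normalization.

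*TPM3* parted from the other tropomyosins in the first step. It was the only one of the 3 whose tested probes fell from 110 to 180 dpc. The log2 ratio of *TPM1* to *TPM3* within arrays rose from between 0.74 and 1.45 at 110 dpc to between 1.54 and 2.15 at 260 dpc, by 0.79, and that of *TPM2* to *TPM3* by 0.77 (exact permutation p = 0.00794 for each, 0.00907 adjusted over 8 ratios). With other probes the change of *TPM1* to *TPM3* lay between −0.51 and 1.84, above 0 in 46 of 48 pairs. That of *TPM2* to *TPM3* lay between −0.53 and 1.16, above 0 in 20 of 24. All foetuses at 260 dpc lay above all at 110 dpc in 36 of the 48 and 18 of the 24 pairs. The genes outside the family with the most similar profile were *TNNC1*, the troponin C of slow and cardiac muscle, at a root mean square difference of 0.407, *MYL2*, the slow regulatory light chain, at 0.414, and *CKB*, the brain creatine kinase, at 0.420, against an own spread of 1.04. This is a description over the 21 arrays, which share their stages.

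Genes of slow fibres rose in the same late step. Of 9 tested slow fibre markers, 8 rose and none fell from 210 to 260 dpc, while from 110 to 180 dpc none passed (limma; by brightest probe 47.0% and 25.1% of all tested genes passed in these steps). For instance, *MYH7*, the slow myosin heavy chain, changed by 0.19 in the first step (adjusted p = 0.499) and by 1.47 in the last (4.94e-06). The summed level of the slow markers on the log2 scale was 11.36 to 11.86 at 110 dpc, 11.41 to 11.85 at 180 dpc, 11.26 to 12.19 at 210 dpc and 13.09 to 13.35 at 260 dpc. Of 8 tested fast fibre markers, all rose in the first and in the last step. *TNNC1* and *MYL2* are themselves members of the slow fibre list. The part of fibre composition in the changes of *TPM3* was not tested.

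The tropomodulin *TMOD4*, the form of skeletal muscle fibres, changed most of the 9 genes. It read 2.28, 2.45 and 2.82 in BA and 2.66 and 2.95 in CH at 110 dpc. At 180 dpc it read 5.80 and 5.86 in BA and 5.72, 6.17 and 6.27 in CH. The foetuses at 210 dpc lay between 6.70 and 7.19, and at 260 dpc it read 8.21 and 8.42 in BA and 7.96, 8.40 and 8.61 in CH. No stage overlapped the next. The change from 110 to 260 dpc was 5.66 ± 0.15 (SE, n = 5 and 5; limma adjusted p = 1.67e-14), 50.5-fold, of which 3.28 came between 110 and 180 dpc, 1.04 between 180 and 210 dpc and 1.34 between 210 and 260 dpc. The second probe rose by 6.21 ± 0.17, from a median of 1.20 to one of 7.69. The nearest profiles were those of *GADL1* at 0.417, the chloride channel *CLCN1* at 0.522, and *ACTN3*, the alpha-actinin of fast fibres, at 0.535, against an own spread of 2.07.

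*TMOD1*, the tropomodulin also found in heart and red cells, rose later and less. It read 5.37, 5.55 and 5.70 in BA and 5.53 and 5.58 in CH at 110 dpc and 7.02 and 7.19 in BA and 6.98, 7.12 and 7.62 in CH at 260 dpc, without overlap. The change was 1.62 ± 0.13 (SE, n = 5 and 5; limma adjusted p = 8.33e-09), 3.08-fold. The first step, 0.23, did not pass (0.227), the next was 0.47 (0.0227) and the last 0.93 (1.47e-05). The step from 180 to 210 dpc was lost without BA replicate 1, BA replicate 2 or CH replicate 3 at 180 dpc, or BA replicate 1 or 3 at 210 dpc. It also failed on the authors' value table (0.401), with no filter (0.0622), in female foetuses alone (0.137) and with sire as a block (0.0949). Both *TMOD1* probes passed in the later steps and neither in the first. The genes nearest in profile were *NDUFA9*, a subunit of respiratory complex I, at 0.148, *EIF1* and *NDUFB6*. Of 3 tested erythroid markers, 2 fell from 110 to 260 dpc, where 31.5% of all tested genes fell by brightest probe. The summed level of the erythroid markers was 8.70 to 9.65 at 110 dpc and 7.24 to 8.11 at 260 dpc. The part of red cells in the values of *TMOD1* was not tested. The log2 ratio of *TMOD4* to *TMOD1* went from between −3.41 and −2.59 to between 0.83 and 1.42, a change of 4.05 (exact permutation p = 0.00794, 0.00907 adjusted).

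**Figure D3:**
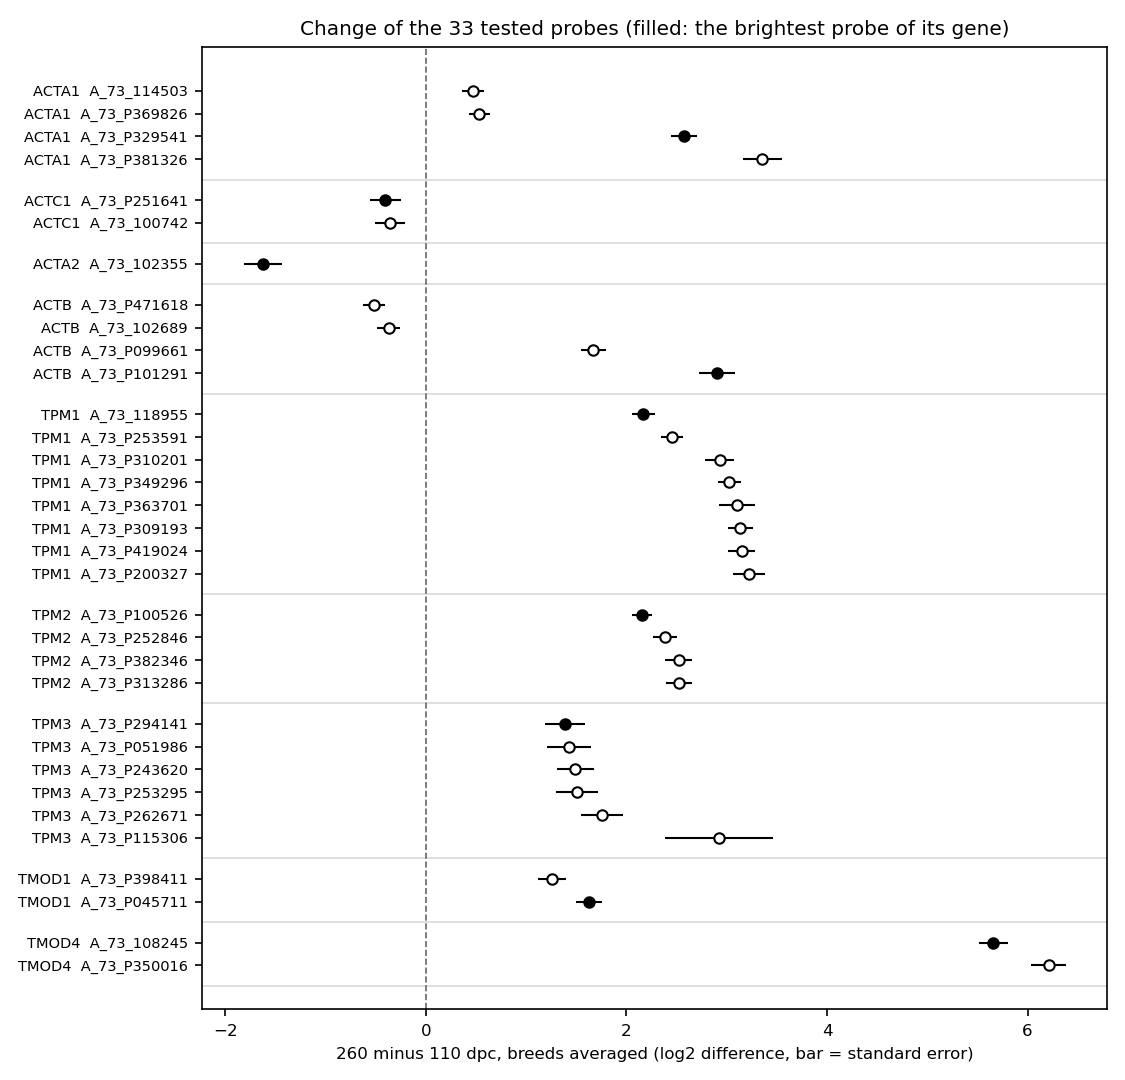
Difference between 260 and 110 dpc, averaged over the breeds (x axis, log2 units, bars are standard errors from limma), for the 33 tested probes grouped by gene (y axis), with the brightest probe of each gene filled. The probes of *TPM1*, *TPM2*, *TPM3*, *TMOD1* and *TMOD4* lay to the right of 0, those of *ACTC1* and *ACTA2* to the left, and those of *ACTB* on both sides.

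Timing differed between the genes. From 110 to 180 dpc 17 member probes rose, 7 fell and 9 did not pass, where 12.5% of all tested probes rose and 11.4% fell (24.0% in all). From 180 to 210 dpc 20 rose, none fell and 13 did not pass, against 5.35% and 4.33% of all probes (9.68% in all), and from 210 to 260 dpc 28 rose, 3 fell and 2 did not pass, against 24.8% and 19.9% (44.7% in all). The count from 180 to 210 dpc was 9 without the BA foetus of replicate 1 at 180 dpc. By brightest probe, *ACTA1*, *TPM1* and *TMOD4* made their largest step between 110 and 180 dpc, and *TPM3* and *TMOD1* theirs between 210 and 260 dpc. The first and last steps of *TPM2*, 0.76 and 0.88, changed order with quantile normalization (0.76 and 0.46) and on the authors' value table (0.78 and 0.47). No difference between steps was tested.

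Other genes of the thin filament and of actin assembly were taken as a list of 33, of which 28 had a probe and 25 were tested. From 110 to 260 dpc 17 rose, 7 fell and 1 did not pass, with a median difference of 0.59 against 0.034 over all tested genes. With the authors' own values, 11 rose and 7 fell. By brightest probe, 65.3% of all tested genes passed in this comparison. The 4 genes with the lowest p were the *ACTG2* probe above, *FHOD1*, a formin that assembles actin filaments, which rose by 1.99 ± 0.11 (limma adjusted p = 1.31e-10), *NRAP*, which anchors actin in growing myofibrils, by 1.98 ± 0.12 (2.9e-10), and *LMOD3*, a leiomodin that nucleates thin filaments, by 1.90 ± 0.13 (1.28e-09). From 180 to 210 dpc 5 of the 25 rose and none fell, where 9.83% of all tested genes passed, and from 210 to 260 dpc 12 rose and 5 fell, where 47.0% passed. *NEB*, *KBTBD13*, *MRTFA*, *XIRP2* and *UNC45B* were matched to no probe and were not analysed here.

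**Figure D4:**
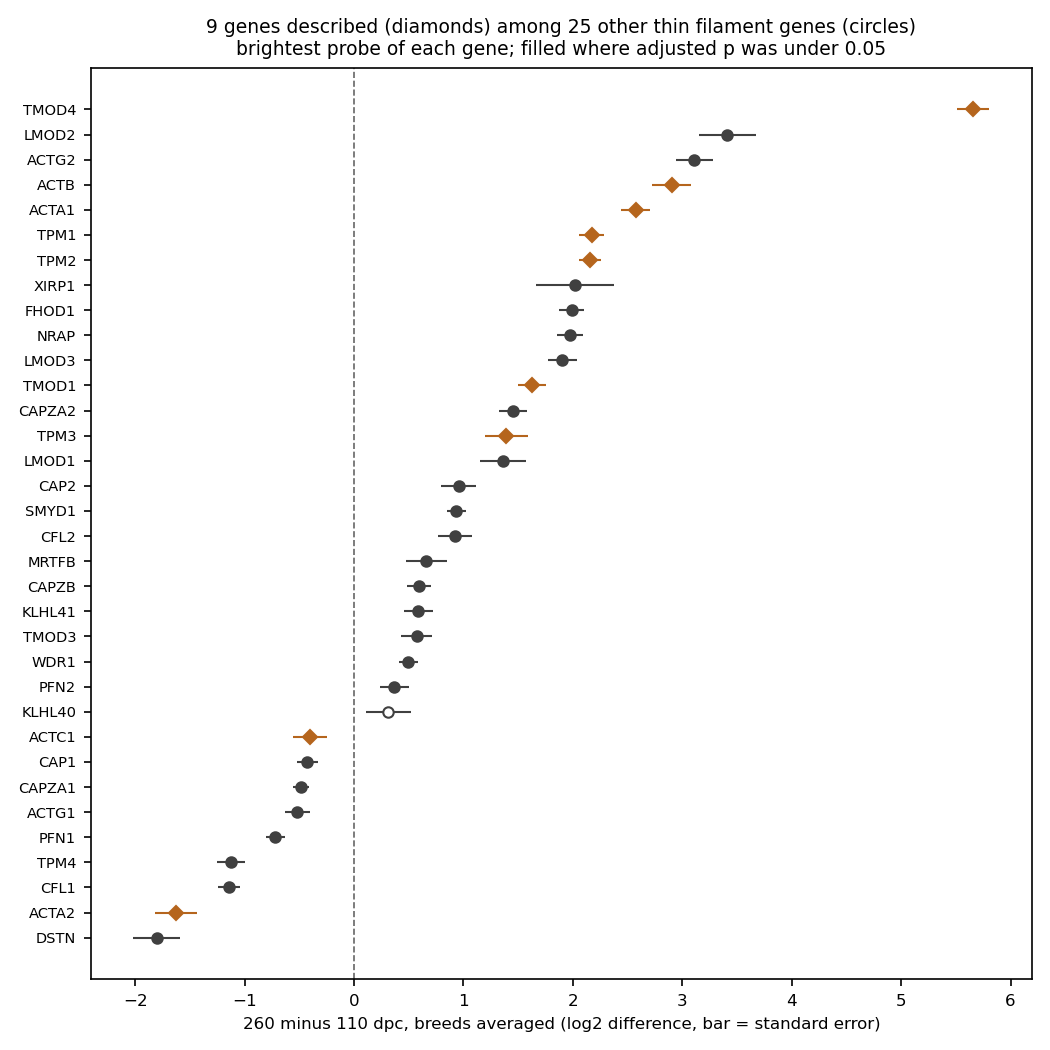
Difference between 260 and 110 dpc, averaged over the breeds (x axis, log2 units, bars are standard errors from limma), for the brightest probe of the 9 described genes (diamonds) and of 25 other thin filament and actin assembly genes (circles), filled where the adjusted p was under 0.05. *TMOD4* had the highest value of the 34 genes, 5.66, and 24 of the 25 other genes passed. Which transcripts the actin probes bind was not tested, and the values of *ACTB* and *ACTG2* come from probes that are uncertain as to gene.

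The breeds were compared at each stage and on average. No member probe passed in the average comparison, at any stage, or in the breed difference of the change from 110 to 260 dpc (limma, adjusted p under 0.05). Of all tested probes 0.358% passed on average, 0.273% at 110 dpc, 0.00993% at 180 dpc, and none at 210 dpc, at 260 dpc or in the difference of the change. At an unadjusted p under 0.05 there were 4 member probes on average, 4 at 110 dpc, 7 at 180 dpc, 4 at 210 dpc, none at 260 dpc and none in the difference of the change. The same threshold took 2512, 2775, 1242, 1054, 1075 and 1427 of all 20132 tested probes, in the same order.

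The average differences leaned toward lower values in BA. On average over the stages, 30 of the 33 probes were lower in BA, against 55.3% of all tested probes, and all 9 brightest probes were. The stages did not share this lean. At 110, 180, 210 and 260 dpc 23, 30, 16 and 22 of the 33 probes were lower in BA. The shares of all tested probes were 57.3%, 50.6%, 49.5% and 52.4%. Probes of a gene share their transcripts and are not independent. The largest difference of a brightest probe was that of *ACTA1*, −0.26 ± 0.09 (SE, n = 10 and 11, 95% confidence interval −0.46 to −0.07), with an unadjusted limma p of 0.0103 and an adjusted p of 0.233. The other *ACTA1* probes had −0.32, 0.025 and 0.049, so the gene's probes did not share a sign. That of *TMOD1* was the smallest, −0.04, with an interval of −0.22 to 0.15.

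At 110 dpc the brightest *ACTA1* probe was lower in all 3 BA than in both CH foetuses, by 0.48 (95% confidence interval −0.88 to −0.08, limma adjusted p = 0.267). A_73_P381326 was also lower in all BA foetuses, but A_73_114503 and A_73_P369826 were higher in all of them, and the 4 differences lay between −0.65 and 0.24. All BA values were below all CH values in 13 of the 33 probes, and in 17.7% of all tested probes. They were above all CH values in 5 of the 33, the 2 of *ACTA1* and 3 of *TPM3*, and in 11.7% of all tested probes. At 180 dpc all BA values were below all CH values in 11 of the 33 probes and in 13.6% of all probes. At 210 dpc BA lay below CH in this way in none of the 33 and in 4.91% of all. At 260 dpc it did so in 2, the brightest *ACTC1* probe and a *TPM3* probe, and in 10.1% of all. At these 3 stages no member probe was above all CH values in all BA foetuses. None of these differences passed.

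At 210 dpc *ACTC1* was 0.46 lower in BA (95% confidence interval −0.87 to −0.06, limma adjusted p = 0.864) and *TPM3* 0.55 lower (−1.08 to −0.02, 0.936). Foetuses of the breeds overlapped for both. Slides 4 and 6 each held 1 BA and 1 CH foetus at this stage. On slide 4 the BA foetus was female and the CH foetus male, and on slide 6 both were female. The *TPM3* difference was 0.68 on slide 4 and −1.21 on slide 6, and that of *ACTC1* −1.27 and 0.05. At 260 dpc the 95% intervals of the 9 brightest probes all included 0. They reached from −0.33 to 0.28 for *TPM2*, the narrowest, and from −0.82 to 0.37 for *TPM3*, the widest.

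**Figure D5:**
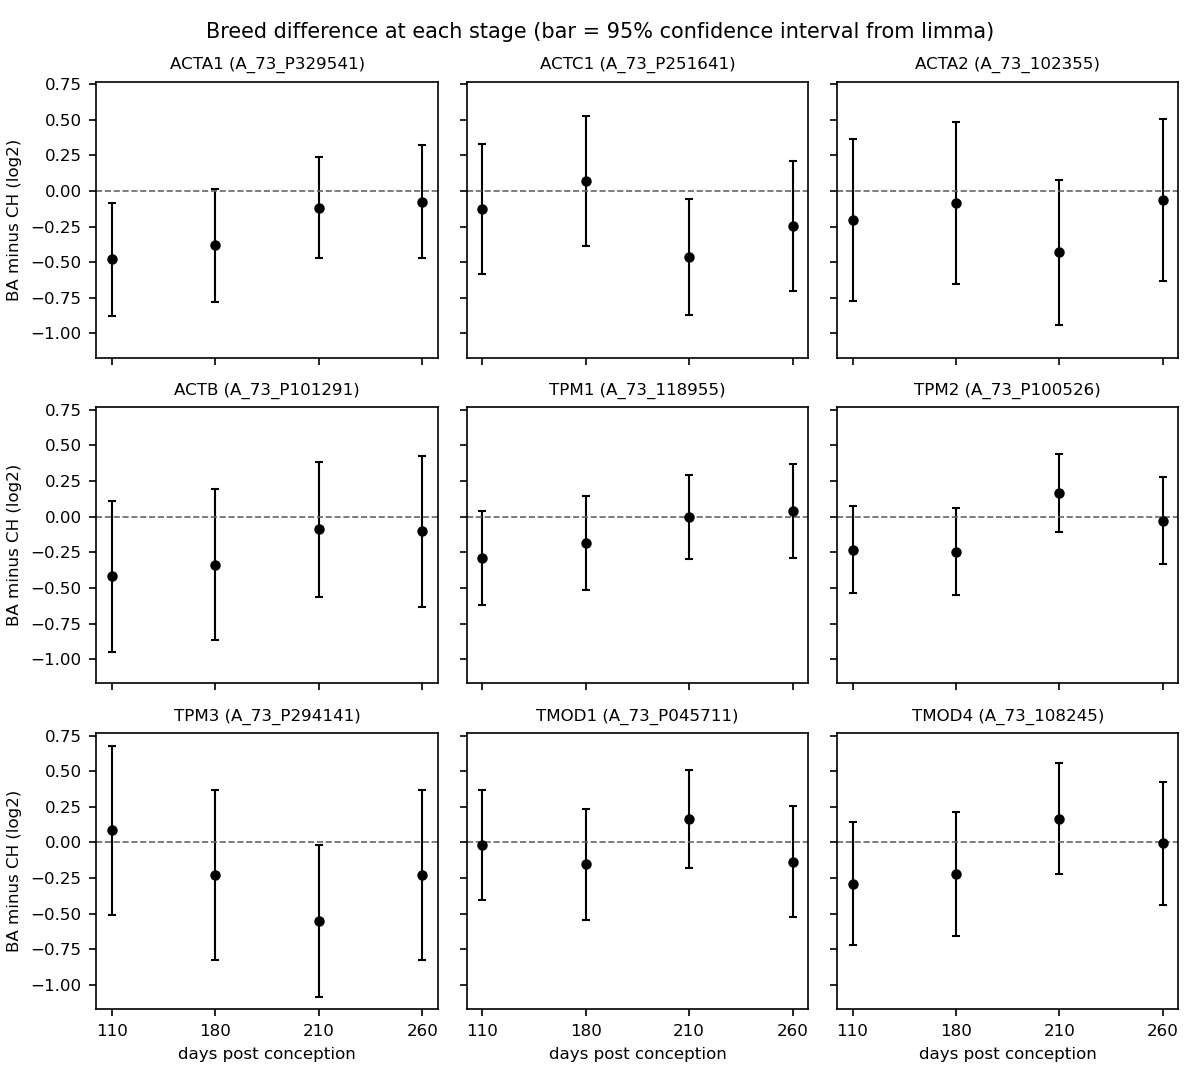
BA minus CH difference (y axis, log2 units) of the brightest probe of each of the 9 genes at 110, 180, 210 and 260 dpc (x axis), with 95% confidence intervals from limma. The differences lay on either side of 0 and none passed the adjusted threshold, with *ACTA1* at 110 dpc (−0.48) and *TPM3* at 210 dpc (−0.55) among the largest.

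The change from 110 to 260 dpc was seen within each breed. In BA 27 member probes rose, 2 fell and 4 did not pass, and in CH 28 rose, 3 fell and 2 did not pass, where 52.4% and 52.2% of all tested probes passed. *ACTA1* rose by 2.78 ± 0.19 in BA (SE, n = 3 and 2) and by 2.37 ± 0.19 in CH (n = 2 and 3), and the difference of these changes was 0.41 with a 95% confidence interval of −0.16 to 0.97 (limma adjusted p = 0.781). *TMOD4* rose by 5.80 and 5.52, *TPM1* by 2.34 and 2.00, and *TPM3* by 1.24 and 1.55. *ACTC1* passed in neither breed, with −0.46 and −0.34, but passed in both with quantile normalization, with −0.998 and −0.995. In BA it also passed with normexp correction (−0.53, adjusted p = 0.0393), on the authors' value table (−0.88, 0.0229) and without BA replicate 1 at 210 dpc (−0.46, 0.0253). On the 1 slide that held both stages, with a BA foetus at 110 dpc and a CH foetus at 260 dpc, the changes were 3.11 for *ACTA1*, −2.09 for *ACTA2*, 2.61 for *TPM1*, 2.63 for *TPM2*, 1.71 for *TPM3*, 2.24 for *TMOD1* and 6.16 for *TMOD4*.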

How the data were processed

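The authors made the intensity values with Agilent Feature Extraction 10.7, with detrending and no subtraction of background. Their methods also state normalization between arrays, but the deposited intensities still differed in scale. Their deposited log2 values hold the same intensities, as 649571 of 649670 values were within 0.01 of the log2 processed intensity. Control spots and 258 outlier spot values were left out, spots of a probe were averaged, and the 75th percentile of each array (525 to 1174 intensity units, median 706) was subtracted from the log2 intensity and 2.69 added. An array held 29017 to 34502 probes clearly over its background, and the number of arrays limits the precision. Probes were named through RefSeq accessions in the ARS-UCD2.0 annotation, and no positions are given because the array was designed on another assembly.

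A mean for each of the 8 groups was fitted over 21 arrays with limma 3.58.1 in R 4.3.3 (residual degrees of freedom 13, prior 3.79), tested on simulated data. The lists were written from gene symbols. The members, lists and tests were chosen with earlier results of these data known. The contrasts 210 with 110 and 260 with 180 dpc, the probe pairs of *ACTA1* and *ACTB*, and the ratios of other probe pairs, were added after seeing values. The rule for named genes took the brightest tested probe of each member, up to 4 list genes by lowest p, and the 3 nearest profiles.

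Results were recomputed with median spot signals corrected by normexp (offset 50), with arrays set to equal quantiles or medians, and from the log2 values as the authors deposited them. Dim probes were also all kept, or dropped by detection. Sex, sire, slide, day of scanning and replicate number each entered the model once, and fits on females only, with a trended robust prior, with a gene's other probes and without each array were made. Where a group kept 1 array, it was assumed to vary like the others. Each replicate was a separate foetus. Replicate numbers did not pair the foetuses: the median correlation of group-centred arrays was 0.009 over 66 pairs of the same number and −0.009 over 126 others. The 6 slides were scanned on 3 days.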

Additional observations from a re-analysis of the deposited data

How the results depend on the processing

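From 110 to 260 dpc the number of member probes called stayed between 30 and 33 in all alternatives, and between 31 and 33 when arrays were left out. From 180 to 210 dpc it was 20, and it was 6 on the authors' value table, 2 in female foetuses alone and 9 with sire as a block, and 9 to 21 when arrays were left out. With no filter or with slide as a block the count from 180 to 210 dpc was 15. No alternative called a member probe between the breeds. The step of *TPM1* from 180 to 210 dpc passed in 4 of 13 alternatives. With quantile normalization the last step did not pass for *ACTA1* (0.15) and *TPM1* (0.10), nor on the authors' table (0.25 and 0.18). The fall of *ACTC1* from 110 to 260 dpc also failed with no filter (adjusted p = 0.0564), with sire as a block (0.0694), and when any of 6 arrays was left out (adjusted p up to 0.0765). Those were BA replicate 2 and CH replicates 1 and 2 at 110 dpc, and BA replicates 1 and 2 and CH replicate 3 at 260 dpc. Among differences that did not pass, the sign turned for *ACTC1* from 210 to 260 dpc with median scaling (0.049) and in female foetuses alone (0.13), for *ACTC1* from 180 to 210 dpc with slide as a block (0.034), for *ACTA2* from 180 to 210 dpc in female foetuses alone (0.019), and for the average breed difference of *TMOD1* on the authors' table (0.019), in female foetuses alone (0.0092), with slide (0.067) and with scan day (0.0064) as a block. When arrays were left out these lay between −0.18 and 0.044 for *ACTC1* from 210 to 260 dpc, between −0.21 and 0.016 from 180 to 210 dpc, and between −0.070 and 0.012 for *TMOD1*. The *ACTB* probes A_73_102689 (−0.37) and A_73_P471618 (−0.51) turned the direction of the brightest probe. In BA alone the rise of *TPM3* failed with quantile normalization (0.60), on the authors' table (0.82) and with slide as a block (1.09). Of all called probes from 110 to 260 dpc, 60.6% were higher with median scaling and 23.9% on the authors' table. Sire as a block could not be fitted for the breed comparisons, since each sire belongs to 1 breed. Replicate numbers do not pair the foetuses; with the number as a replicate block 33, 24, 19 and 31 member probes were called from 110 to 260, 110 to 180, 180 to 210 and 210 to 260 dpc. The cause of each change was not tested.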

Other observations

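Within the list of actin assembly genes, several families split between a member that rose and a member that fell from 110 to 260 dpc. These families were picked out after their values were seen and were given no test of their own. *CFL2*, the cofilin of muscle, rose by 0.92 ± 0.16 (SE, n = 5 and 5; limma adjusted p = 5.68e-05), while *CFL1*, the cofilin of other cells, fell by 1.14 ± 0.10 (2.46e-08), from a mean of 6.85 at 110 dpc to 5.70 at 260 dpc. *CAPZA2* rose by 1.45 ± 0.13 (3.12e-08) and *CAPZA1*, the other alpha subunit of the capping protein, fell by 0.48 ± 0.07 (1.8e-05). *CAP2* rose by 0.96 ± 0.16 (6.33e-05) and *CAP1* fell by 0.43 ± 0.10 (0.000867). *PFN2* rose by 0.37 ± 0.13 (0.0199) and *PFN1*, the widely expressed profilin, fell by 0.72 ± 0.09 (2.5e-06).

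Among the tropomyosins outside the 9 genes, *TPM4*, a cytoskeletal form, fell by 1.12 ± 0.13 (7.45e-07), where all tested probes of *TPM1*, *TPM2* and *TPM3* rose. *DSTN*, which severs actin filaments, fell by 1.80 ± 0.21 (9.45e-07) from a mean of 3.12 at 110 dpc to 1.32 at 260 dpc. In the same comparison 8 of 9 fibroblast markers fell, where 31.5% of all tested genes fell by brightest probe. The part of the fibroblast change in these values was not tested. Of the leiomodins, *LMOD2* rose by 3.41 ± 0.26 (5.08e-09) and *LMOD1* by 1.36 ± 0.21 (1.94e-05).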
